A study of Mus musculus with 6 samples.

Results

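Steroid hormone synthesis in the ovary rests on a short chain of enzymes and on the receptors through which the pituitary gonadotropins switch that chain on. Transcripts of 10 genes of this system were followed in oocytes of mice carrying a Bnc1 mutation: the gonadotropin receptors Fshr and Lhcgr, the cholesterol transporter Star, the enzymes Cyp11a1, Cyp17a1, Cyp19a1, Hsd3b1 and Hsd17b1, and the redox partners Fdx1 and Fdxr. The genes were chosen by name, for their place in the pathway, and all 10 were found among the 17577 genes of the expression tables. Oocytes came from ovaries of C57BL/6 J mice aged 12 weeks, with 3 libraries homozygous for the mutant allele (Bnc1tr/tr) and 3 wild-type libraries (WT). According to the study's methods, the allele carries a small deletion in a coding exon that shifts the reading frame and brings a premature stop codon, mice of both genotypes were littermates, the females were primed with the FSH-like hormone PMSG, and each cDNA was made from a single germinal vesicle oocyte, the immature stage before meiosis resumes. Bnc1 encodes the zinc finger transcription factor basonuclin 1, and the mutation was present in every cell of the animal, the follicle's somatic cells included. The labels name no individual mice, so the p-values below measure the spread between these libraries.

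In a growing follicle the theca cells around it take up cholesterol and turn it into androgen, and the granulosa cells inside turn that androgen into estradiol. Star brings cholesterol into the mitochondrion, Cyp11a1 cuts its side chain to give pregnenolone with electrons that pass from Fdxr to Fdx1, and Hsd3b1, Cyp17a1, Hsd17b1 and Cyp19a1 (aromatase) carry out the later steps. Follicle-stimulating hormone acts on granulosa cells through Fshr, and luteinizing hormone acts on theca and late granulosa cells through Lhcgr. The oocyte is not classed among the steroid-producing cells, and it lies in contact with cumulus cells, which are granulosa cells.

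Expression was given as FPKM, fragments scaled to transcript length and sequencing depth, a scale on which levels of different genes can be compared. The labelled cell type held up against its markers: the 13 oocyte markers summed to between 7190 and 11200 FPKM per library, and Zp3, a zona pellucida protein, was the highest of them. Bnc1 itself stood at 9.04, 6.51 and 5.83 FPKM in the Bnc1tr/tr libraries and at 13.17, 12.54 and 16.23 FPKM in the WT libraries. Depth, estimated from the steps between low values, was 13.3 to 21.3 M fragments, and 3 fragments on a transcript of 1 kb correspond to 0.141 to 0.226 FPKM. More genes reached 1 FPKM in Bnc1tr/tr libraries (10682 to 11035) than in WT libraries (9518 to 9748). The median log2 fold change of all 10560 genes tested was 0.15, and values relative to that shift are given below.

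A mean of 1 FPKM or more across all libraries was required for the test, and 4 of the 10 genes met it: Fshr, Cyp11a1, Fdx1 and Cyp19a1. The other 6 (Lhcgr, Star, Fdxr, Cyp17a1, Hsd3b1 and Hsd17b1) lay below that level. A gene was called at an adjusted p under 0.05 (limma, Benjamini-Hochberg over all tested genes) with an absolute log2 fold change over 0.5. By that rule 3 of the 4 tested genes were higher in Bnc1tr/tr oocytes, namely Fshr, Cyp11a1 and Fdx1, and 0 were lower. Fshr, with a WT mean of 0.35 FPKM, met the filter only through its Bnc1tr/tr values, so its entry was tied to the difference tested. Fitted without the filter, the same 3 of the 10 were called higher and 0 lower, with an adjusted p of 0.002 for Fshr (limma). In that fit 15.5% of all 17577 genes were called higher. At an unadjusted p under 0.05 in the filtered fit all 4 tested genes were higher (limma). The share over all tested genes at that looser level was not computed, so this count has no background beside it. The background was high: among all 10560 tested genes 24.1% were called higher and 7.68% lower. The 3 genes were also those whose groups did not overlap, against 32.7% of all tested genes that lay higher in all Bnc1tr/tr libraries without overlap. The call of Fdx1 was lost under most other settings, so that Fshr and Cyp11a1 carry the result.

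**Figure D1:**
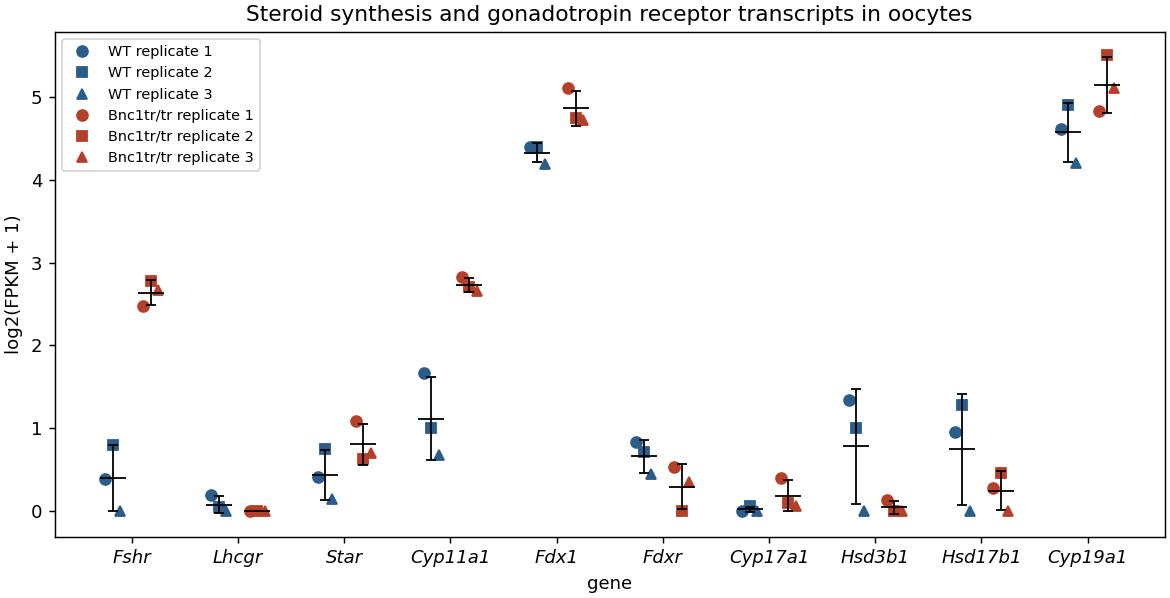
Expression of the 10 genes as log2(FPKM + 1) in each library, with receptors at the left and the enzymes in pathway order; blue symbols are WT, red symbols Bnc1tr/tr, and bars give the mean and SD of 3 libraries. Fshr and Cyp11a1 separate the genotypes, Fdx1 and Cyp19a1 stand far above the other genes in both, and Hsd3b1 and Hsd17b1 are above 0.9 FPKM only in WT replicates 1 and 2.

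Fshr, the receptor for follicle-stimulating hormone, differed most between the genotypes. It measured 4.54, 5.83 and 5.37 FPKM in the Bnc1tr/tr libraries and 0.31, 0.74 and 0 FPKM in the WT libraries. All 3 mutant libraries lay above every WT library, and the means were 5.25 ± 0.654 and 0.35 ± 0.372 FPKM (SD, n = 3 each), a ratio of 15.0. On the log2(FPKM + 1) scale, which compresses changes of low genes, the difference was 2.24 ± 0.22 (SE), or 2.10 above the median shift, with an adjusted p of 0.00011 (limma). At the estimated depths the mutant values stand for 129 to 208 fragments per library and the WT values for 0 to 25.8 fragments, so the WT level is poorly determined and the fold is uncertain: with a pseudocount of 0.1 the log2 difference was 4.03. Its rank moved accordingly, from above 57.1 to 62.0% of all genes in Bnc1tr/tr libraries to above 0 to 41.3% in WT libraries. RNA made by the oocyte and RNA from follicle cells that stayed attached to it cannot be told apart in such libraries, here or for any gene below.

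The 250 bases before the Fshr transcription start are shown because the transcript differed most here. They come from RefSeq (GRCm38.p6, chr17:89200676-89200925, minus strand), end at the base before the start, and run from 5′ to 3′. The capitals mark the E-box CACGTG, the motif read by basic helix-loop-helix factors, which begins at base -61.
Fshr promoter: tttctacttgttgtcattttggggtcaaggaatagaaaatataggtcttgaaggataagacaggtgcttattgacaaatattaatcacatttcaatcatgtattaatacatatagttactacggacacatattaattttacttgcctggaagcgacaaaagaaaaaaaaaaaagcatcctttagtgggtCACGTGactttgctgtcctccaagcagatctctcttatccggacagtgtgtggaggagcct
The E-box was present, on either strand, in 6.02% of the 32851 RefSeq promoter windows of this length, and in 1 of the 10 windows found for 7 of the genes studied here, that of Fshr.

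Lhcgr, the receptor for luteinizing hormone, was at the limit of detection. It was listed at 0 in all 3 Bnc1tr/tr libraries and measured 0.14, 0.03 and 0 FPKM in the WT libraries. The highest of these corresponds to 13.8 fragments on a transcript of 6828 bases. No fold can be given, and the groups overlap at 0 (exact two-sided permutation test over 6 libraries, p = 0.40). For this and the other 5 genes below the mean of 1 FPKM, the smallest p that 3 against 3 libraries allow is 0.10, and the 6 p-values are not adjusted. Of the gonadotropin receptors, Fshr could thus be compared between genotypes and Lhcgr could not.

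Star, which moves cholesterol to the inner mitochondrial membrane, was low in all libraries. It measured 1.12, 0.55 and 0.62 FPKM in Bnc1tr/tr libraries and 0.33, 0.68 and 0.11 FPKM in WT libraries. The groups overlapped, with WT replicate 2 above mutant replicates 2 and 3, and the means were 0.763 ± 0.311 and 0.373 ± 0.287 FPKM (SD, n = 3; exact permutation p = 0.30). The annotated coding transcripts of Star run from 633 to 4046 bases, so its FPKM could not be turned into a reliable number of fragments.

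Cyp11a1, the side-chain cleavage enzyme that commits cholesterol to steroid synthesis, was the other gene that clearly differed. It measured 6.08, 5.53 and 5.29 FPKM in Bnc1tr/tr libraries against 2.17, 1.0 and 0.60 FPKM in WT libraries. The mutant libraries lay close together and above all WT libraries, while the WT values spread more widely. The means were 5.63 ± 0.405 and 1.26 ± 0.816 FPKM (SD, n = 3 each), a ratio of 4.48. The log2(FPKM + 1) difference was 1.61 ± 0.25 (SE), or 1.47 above the median shift, with an adjusted p of 0.0013 (limma). Of the 31-base words in its transcripts 3.06% also occur in other genes, most of them in the pseudogene Gm17322, whose annotation overlaps 589 bases of Cyp11a1.

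The 250 bases before the Cyp11a1 start that coincides with an annotated GENCODE transcript are shown for the same reason (RefSeq, GRCm38.p6, chr9:58014702-58014951, plus strand). The capitals mark AGGTCA, the core bound by orphan nuclear receptors such as Nr5a1 and Nr5a2, known regulators of steroid enzymes, which begins at base -28.
Cyp11a1 promoter: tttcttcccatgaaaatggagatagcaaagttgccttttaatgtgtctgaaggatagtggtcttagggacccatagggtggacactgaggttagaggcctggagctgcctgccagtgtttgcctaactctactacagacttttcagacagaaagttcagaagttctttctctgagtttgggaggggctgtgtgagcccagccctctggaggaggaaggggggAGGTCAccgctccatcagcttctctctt
AGGTCA was found on either strand in 14% of all windows, and among the 10 windows of the genes studied in 3: this one, that of Lhcgr and the most upstream of 3 for Cyp19a1. The longer motifs CAAGGTCA, CAAGGCCA and TGACGTCA, searched on both strands, matched 0 of the 10. Nr5a2 measured 7.09, 5.15 and 4.10 FPKM in Bnc1tr/tr and 3.49, 3.82 and 3.85 FPKM in WT, with no call (log2 difference 0.42 ± 0.20, adjusted p = 0.14, limma).

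Fdx1, the ferredoxin that hands electrons to mitochondrial steroid enzymes, was among the highest of the 10 genes in both genotypes. It measured 33.55, 25.93 and 25.50 FPKM in Bnc1tr/tr libraries and 20, 19.98 and 17.27 FPKM in WT libraries. The groups did not overlap, and mutant replicates 2 and 3 lay closer to the WT libraries than replicate 1. The means were 28.3 ± 4.53 and 19.1 ± 1.57 FPKM (SD, n = 3 each), a log2(FPKM + 1) difference of 0.54 ± 0.18 (SE) and an adjusted p of 0.044 (limma). This call sits at both thresholds: it was lost when any 1 library was left out (adjusted p from 0.066 to 0.14), and under each of the 3 other scalings tried (log2 difference 0.27 to 0.34). Relative to the median shift of all genes the difference was 0.39.

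Fdxr, the reductase that supplies Fdx1 with electrons, was far lower than its partner and did not follow it. It measured 0.44, 0 and 0.28 FPKM in Bnc1tr/tr libraries and 0.78, 0.64 and 0.36 FPKM in WT libraries. The groups overlapped (0.24 ± 0.223 against 0.593 ± 0.214 FPKM, SD, n = 3; exact permutation p = 0.20). Within a library Fdx1 exceeded Fdxr by 25.6 to 48.0 times in WT and by 76.2 and 91.1 times in mutant replicates 1 and 3, and mutant replicate 2 listed Fdxr at 0. The mitochondrial ferredoxin Fdx2 (listed as Fdx1l), which serves iron-sulfur cluster assembly, was between 53.93 and 63.37 FPKM in all libraries (log2 difference 0.01 ± 0.16, adjusted p = 0.98, limma).

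Cyp17a1, the theca enzyme that makes androgen precursors, was nearly absent. It measured 0.32, 0.07 and 0.04 FPKM in Bnc1tr/tr libraries and 0, 0.04 and 0 FPKM in WT libraries (exact permutation p = 0.20). Only mutant replicate 1 held more than 3 fragments by estimate, between 6.8 and 9.3 depending on the transcript. A difference between the genotypes was not detectable at this depth.

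Hsd3b1 and Hsd17b1, dehydrogenases that make progesterone and estradiol from their precursors, shared a pattern across libraries that did not follow the genotype. Hsd3b1 measured 1.53, 1.0 and 0 FPKM in the WT libraries and 0.10, 0 and 0 FPKM in the Bnc1tr/tr libraries. Hsd17b1 measured 0.93, 1.43 and 0 FPKM in WT and 0.21, 0.38 and 0 FPKM in Bnc1tr/tr. Both were highest in WT replicates 1 and 2 and at 0 in WT replicate 3, so the groups overlapped (exact permutation p = 0.40 for each). Hsd3b1 shares 13.0% of its 31-base words with other genes, chiefly its paralogs Hsd3b6, Hsd3b2 and Hsd3b3, so its reads could be split among them. Hsd3b6 measured 1.65, 1.19 and 0.41 FPKM in WT and 0.57, 0.52 and 0.22 FPKM in Bnc1tr/tr, again highest in WT replicates 1 and 2.

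A pair of granulosa transcripts were likewise highest in WT replicates 1 and 2, though the full order of libraries differed between these genes. Inha, which encodes the inhibin alpha subunit, measured 6.78, 3.45 and 0.04 FPKM in WT and 0.18, 1.81 and 0.09 FPKM in Bnc1tr/tr, and Gja1, the gap junction protein of granulosa cells, measured 2.77, 1.14 and 0.06 FPKM in WT and 0.63, 0.68 and 0.20 FPKM in Bnc1tr/tr. Both genes were chosen after their values were seen. Their part in the values of Hsd3b1 and Hsd17b1 was not tested. Other granulosa genes were mixed over WT replicates 1, 2 and 3. Nr5a2 (3.49, 3.82 and 3.85 FPKM), Kitl (1.13, 1.12 and 1.18 FPKM) and Inhba (0.61, 0.18 and 0.25 FPKM) did not follow. Fst (0.63, 0.1 and 0.04 FPKM) and the gonadotropin-induced Ccnd2 (1.52, 5.04 and 0.76 FPKM) were lowest in WT replicate 3. For both, Bnc1tr/tr replicate 2 lay above the lower of WT replicates 1 and 2. Fst and Ccnd2 were named after their values were seen. The remaining granulosa markers stayed below 0.3 FPKM in every library. Within WT, Fshr and Cyp11a1 were also higher in replicates 1 and 2 than in replicate 3. With WT replicates 1 and 2 both left out, an alternative chosen after seeing the data, the log2 difference was 2.64 for Fshr and 2.05 for Cyp11a1. Those replicates held the higher WT values of both genes, so the difference could only grow, and 1 WT library remained.

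**Figure D2:**
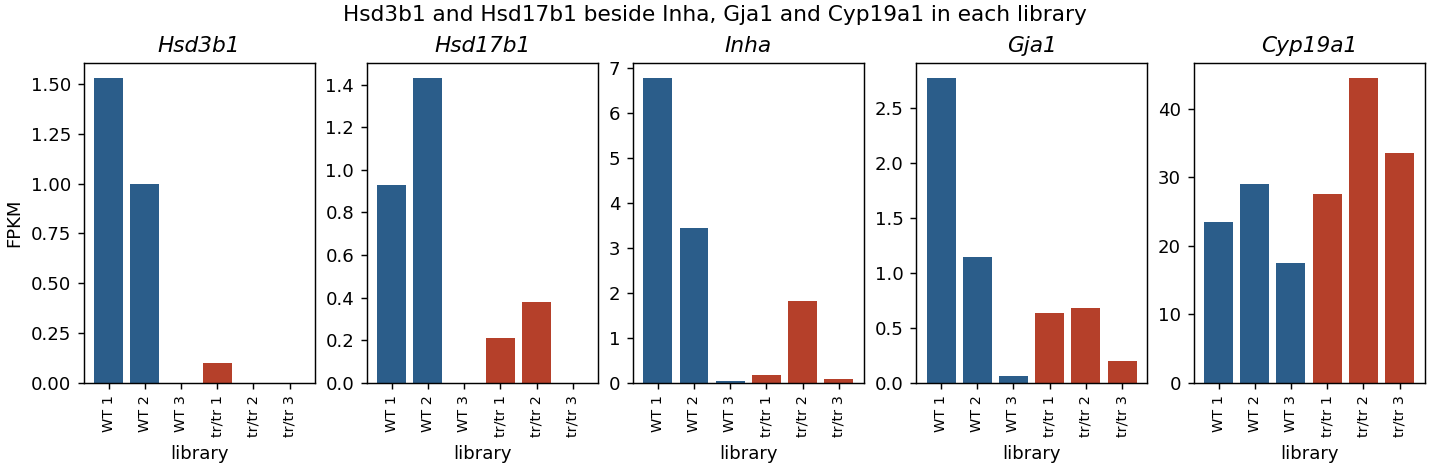
FPKM of Hsd3b1, Hsd17b1, the granulosa transcripts Inha and Gja1, and Cyp19a1 in each of the 6 libraries (blue WT, red Bnc1tr/tr; bars start at 0 and each panel has its own scale). The first 4 genes are highest in WT replicates 1 and 2 and near 0 in WT replicate 3, whereas Cyp19a1 stays between 17.41 and 44.41 FPKM in all libraries.

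Cyp19a1, aromatase, which turns androgens into estrogens and is used as a granulosa marker, was the highest of the 10 genes in the mean of either genotype. It measured 27.49, 44.41 and 33.46 FPKM in Bnc1tr/tr libraries and 23.45, 28.98 and 17.41 FPKM in WT libraries. The lowest mutant library lay below WT replicate 2, and the means were 35.1 ± 8.58 and 23.3 ± 5.79 FPKM (SD, n = 3 each). The log2(FPKM + 1) difference of 0.57 ± 0.24 (SE) did not pass the test (adjusted p = 0.10, limma), and its unadjusted 95% interval ran from 0.03 to 1.12. Its lowest library, WT replicate 3, held an estimated 802 to 831 fragments of Cyp19a1, and Fshr, Hsd3b1 and Hsd17b1 were listed at 0 there. The cells from which this Cyp19a1 RNA came were not tested.

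The levels of the 10 genes fell into separate ranges. In WT libraries Cyp19a1 and Fdx1 had means of 23.3 and 19.1 FPKM, whose ranges overlap, and the others followed at 1.26 FPKM (Cyp11a1) and below. In Bnc1tr/tr libraries Cyp19a1 and Fdx1 again led (35.1 and 28.3 FPKM, overlapping ranges), Cyp11a1 and Fshr formed a middle pair (5.63 and 5.25 FPKM, overlapping ranges), and the remaining 6 had means of 0.763 FPKM or less. Fitted without the filter, over all 17577 genes, of which 15.5% were then called higher, 0 of the 6 low genes were called in either direction (adjusted p from 0.20 for Hsd3b1 and Fdxr to 0.57 for Lhcgr, limma), and 0 had an unadjusted p under 0.05. Their intervals were wide, from -1.58 to 0.12 for Hsd3b1 and from -1.35 to 0.36 for Hsd17b1 on the log2(FPKM + 1) scale, intervals that include sizeable decreases.

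**Figure D3:**
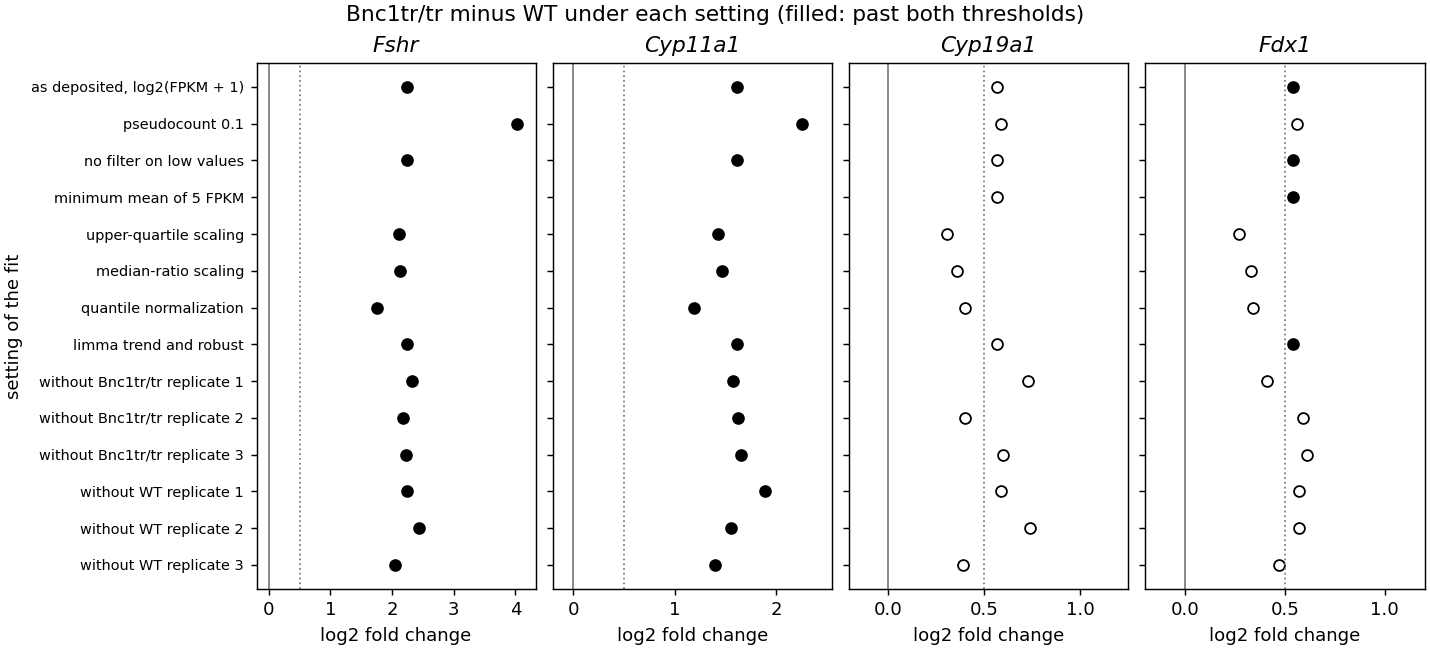
Log2 fold change (Bnc1tr/tr minus WT) of the 4 tested genes as deposited, with another pseudocount, filter, scaling or limma option, and without each library in turn, with filled symbols past both thresholds, the dotted line at 0.5 and an empty place where the gene fell below the filter. Fshr (1.76 to 4.03) and Cyp11a1 (1.19 to 2.25) were past both thresholds under every setting drawn here in which they were tested, Cyp19a1 under none of those drawn, and Fdx1 under some. The fit with a replicate block, in which Cyp19a1 was called (adjusted p = 0.047, limma), is not drawn.

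Markers of the other ovarian cells were read with the 10 genes left out. The 12 granulosa markers summed to 7.22 to 11.9 FPKM in Bnc1tr/tr and 5.53 to 15.8 FPKM in WT, overlapping ranges, and 6 of them, Foxl2, Amhr2, Inhbb, Wt1, Slc38a3 and Npr2, stayed below 0.3 FPKM in every library. Foxl2, the defining granulosa factor, was listed at 0 in 5 libraries and at 0.03 FPKM in WT replicate 1. Nr5a2 was the highest granulosa marker and Kitl the only called one beside Fshr (3.10, 1.94 and 2.33 FPKM in Bnc1tr/tr; 1.13, 1.12 and 1.18 FPKM in WT; adjusted p = 0.018, limma). Inha and Gja1 were not called (adjusted p = 0.41 and 0.56 in the limma fit without the filter).

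Theca and luteal markers gave slightly higher sums in the mutant. The 6 theca markers summed to 3.49 to 5.82 FPKM in Bnc1tr/tr and 2.49 to 3.16 FPKM in WT, with Bgn the highest and Gli1, Hhip and Thbd below 0.3 FPKM throughout. The 5 luteal markers summed to 12.5 to 16.4 and 7.56 to 11.8 FPKM, with Scarb1 the highest and Akr1c18 and Timp1 below 0.3 FPKM throughout. Of the ovarian surface epithelium markers 3 of 3 tested were called higher (24.1% of all tested genes were). Each averaged under 1 FPKM in WT and met the filter only through its Bnc1tr/tr values, so that share was tied to the filter. Without the filter 3 of the 4 measured were called higher, against 15.5% of all genes (limma). The 4 markers summed to 0.86 to 1.71 FPKM in WT and 9.41 to 32.9 FPKM in Bnc1tr/tr, and the keratin Krt8 was the highest. The 5 endothelial markers summed to 5.44 to 8.17 FPKM in Bnc1tr/tr and 10.2 to 11.7 FPKM in WT, also with opposite changes within the sum. Pecam1, the highest, was lower (means 4.01 against 9.11 FPKM, adjusted p = 0.0048, limma). Kdr was higher (means 0.903 against 0.0967 FPKM, adjusted p = 0.049 in the limma fit without the filter). Tek was not called, and Cdh5 and Vwf stayed below 0.3 FPKM. The 6 stromal markers summed to 7.36 to 10.6 and 6.27 to 8.04 FPKM, overlapping sums that joined opposite changes. Dcn, a matrix proteoglycan, was higher (6.46, 6.95 and 4.93 against 1.36, 1.48 and 2.02 FPKM, adjusted p = 0.00051, limma), and Myh11, a smooth muscle myosin, was lower (1.51, 0.95 and 1.49 against 4.87, 5.88 and 5.95 FPKM, adjusted p = 0.00028). The 8 immune markers summed to 60.5 to 125 and 66.2 to 97.3 FPKM, and C1qb made up most of these sums. C1qa, of the same complement complex, measured 1.39, 1.66 and 0.61 FPKM in Bnc1tr/tr and was listed at 0 in WT (adjusted p = 0.013 in the limma fit without the filter). Kdr, Tek, Dcn, Myh11 and C1qa were named after their values were seen. The part of these transcripts in the values of Fshr and Cyp11a1 was not tested. Lyz2, a myeloid gene, measured 5.81 and 47.97 FPKM in Bnc1tr/tr replicates 1 and 2 and 0 in the other 4 libraries. With these replicates both left out, an alternative also chosen after seeing the data, the log2 difference was 2.28 for Fshr and 1.54 for Cyp11a1. The mutant library left held 5.37 and 5.29 FPKM of these genes, near the replicates left out, so the difference could change little. With 1 mutant library left, the spread came from the WT libraries alone. The part of myeloid cells in the values of Fshr and Cyp11a1 was not tested.

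The wider pathway was read from 7 lists of 96 genes, of which 83 were in the tables and 53 were tested. Of those, 14 were higher (26.4%, against 24.1% of all genes) and 3 were lower, and their median log2 fold change was 0.26 against 0.15 over all genes. Among the genes called higher, Hsd11b1, Hsd17b14, Paqr8, Paqr5, Nr3c1 and Cyp1b1 averaged under 1 FPKM in WT. They met the filter only through their Bnc1tr/tr values, so the share was tied to the filter. Without the filter 15 of the 83 were called higher and 2 lower, against 15.5% of all genes called higher (limma). By either count the wider pathway was called higher at a rate near that of all genes. Of the 14 genes called higher, 8 kept the call under all 3 scalings and in all 6 fits without 1 library, and of the 3 called lower 0 did. The share of all called genes that kept their calls in these fits was not computed, so these counts have no background beside them.

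Among the genes of cholesterol delivery 2 of 6 tested rose and 0 fell, against 24.1% and 7.68% of all tested genes. Stard4, a soluble carrier of cholesterol, measured 37.82, 38.85 and 24.56 FPKM in Bnc1tr/tr and 9.21, 9.02 and 12.73 FPKM in WT (log2 difference 1.61 ± 0.23, adjusted p = 0.00081, limma), well above Star in every library. Acbd3, a Golgi protein that binds the translocator protein Tspo, changed by 0.61 ± 0.18 (adjusted p = 0.027), a call that held under 1 of 3 scalings and in 2 of 6 fits without 1 library. Of the other electron carriers (Por, Cyb5a, Cyb5b and Cyb5r3) 0 of 4 were called in either direction (limma), nor did any reach an unadjusted p under 0.05.

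Among the steroid dehydrogenases 5 of 10 tested rose and 1 fell, against 24.1% and 7.68% of all tested genes. Of these, Hsd11b1 and Hsd17b14 met the filter only through their Bnc1tr/tr values. Without the filter 6 of the 14 measured were called higher and 0 lower, against 15.5% of all genes called higher (limma). Hsd11b1, which regenerates active glucocorticoid, measured 8.60, 10.82 and 5.39 FPKM in Bnc1tr/tr and 0.30, 0.44 and 0.54 FPKM in WT (log2 difference 2.66 ± 0.23, adjusted p = 5.4e-05, limma). Hsd17b2, which inactivates estradiol and testosterone and so works against Hsd17b1, measured 9.90, 11.03 and 7.99 FPKM in Bnc1tr/tr and 0.63, 1.76 and 1.82 FPKM in WT (2.18 ± 0.24, adjusted p = 0.00021). Hsd17b10, a mitochondrial enzyme of fatty acid and steroid oxidation, rose from a mean of 37.1 ± 9.44 to 127 ± 15.8 FPKM (SD, n = 3; 1.76 ± 0.21, adjusted p = 0.0003, limma). Groups of these 3 did not overlap, and their calls held under all 3 scalings and in all 6 fits without 1 library. The remaining 3, named after their values were seen, were Hsd17b14 (1.24 to 2.86 FPKM in Bnc1tr/tr, listed at 0 in all WT libraries), Hsd17b7, whose call held under 0 of 3 scalings, and Hsd3b7, an enzyme of bile acid synthesis that was lower (31.05 to 33.95 against 38.27 to 73.43 FPKM; call kept in 1 of 6 fits without 1 library).

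Of the other steroid-metabolizing enzymes 1 of 4 tested was called, near the share over all genes, Cyp1b1, an estrogen hydroxylase, at 2.51, 1.02 and 1.47 FPKM in Bnc1tr/tr and 0.39, 0.53 and 0.65 FPKM in WT (0.77 ± 0.22, adjusted p = 0.026, limma). It met the filter only through its Bnc1tr/tr values. It was called in 2 of 6 fits without 1 library and not in the fit without the filter (adjusted p = 0.054, limma). A further list held genes linked to mitochondrial ferredoxins, those of iron-sulfur cluster and lipoate synthesis and the cytochrome Cyp27a1 among those tested. Of its 15 tested genes 2 were higher and 2 lower, against 24.1% and 7.68% of all tested genes. Lipt2, a lipoyl transferase, stood at 103 ± 8.9 against 51.9 ± 5.3 FPKM (SD, n = 3; 0.97 ± 0.17, adjusted p = 0.0023, limma), and Bola3, a cluster transfer protein, at 132 ± 8.69 against 81.2 ± 5.4 FPKM (0.69 ± 0.16, adjusted p = 0.0097), the latter called under 1 of 3 scalings. Hscb, a cochaperone of cluster transfer, was lower (112 ± 19.3 against 198 ± 47.2 FPKM, -0.81 ± 0.22, adjusted p = 0.021), as was Nfu1 (-0.50 ± 0.17, adjusted p = 0.049), named after its value was seen, whose call held in 0 of 6 fits without 1 library.

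Hormones and receptors of the same axis gave 3 higher and 0 lower calls among 10 tested (30.0%), a share near the 24.1% of all tested genes. All 3 averaged under 1 FPKM in WT and met the filter only through their Bnc1tr/tr values, so that share was tied to the filter. Without the filter 4 of the 15 measured were called higher and 0 lower, against 15.5% of all genes called higher (limma). Paqr8, a membrane progestin receptor, measured 7.18, 3.69 and 5.0 FPKM in Bnc1tr/tr and 0.41, 0.29 and 0.31 FPKM in WT (2.2 ± 0.22, adjusted p = 0.00011, limma), a change close in size to that of Fshr. Paqr5, of the same family, measured 3.29, 2.21 and 2.14 FPKM against 0.44, 0.32 and 0.11 FPKM (1.45 ± 0.19, adjusted p = 0.00057). Nr3c1, the glucocorticoid receptor, measured 2.15, 2.26 and 2.29 FPKM against 1.06, 0.88 and 1.01 FPKM (0.71 ± 0.15, adjusted p = 0.0074), with the call kept under 2 of 3 scalings. Among regulators of steroid genes 1 of 4 tested was called, again near the share over all genes, Crem, a cAMP-responsive factor, at 4.18, 5.34 and 3.72 FPKM in Bnc1tr/tr and 2.25, 2.44 and 0.89 FPKM in WT (0.96 ± 0.25, adjusted p = 0.019, limma); it was not called without the filter (adjusted p = 0.051).

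Genes that gonadotropins induce in granulosa cells were read as a further list, of which 3 were tested and 1 was called, too few to set against the 24.1% of all genes. Nppc, named after its values were seen, encodes the natriuretic peptide by which granulosa cells hold the oocyte in meiotic arrest, and it measured 11.02, 7.31 and 8.27 FPKM in Bnc1tr/tr and 0.08, 0 and 0 FPKM in WT (log2 difference 3.25 ± 0.18, adjusted p = 5e-06, limma). Nppc met the filter only through its Bnc1tr/tr values, so its entry was tied to the difference tested. Without the filter its adjusted p was 0.00023 (limma). Its receptor Npr2 stayed between 0 and 0.18 FPKM. Among the other genes of the list, Ptgs2 and Has2, which the ovulatory surge induces, stayed at or below 0.2 FPKM in all libraries.

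**Figure D4:**
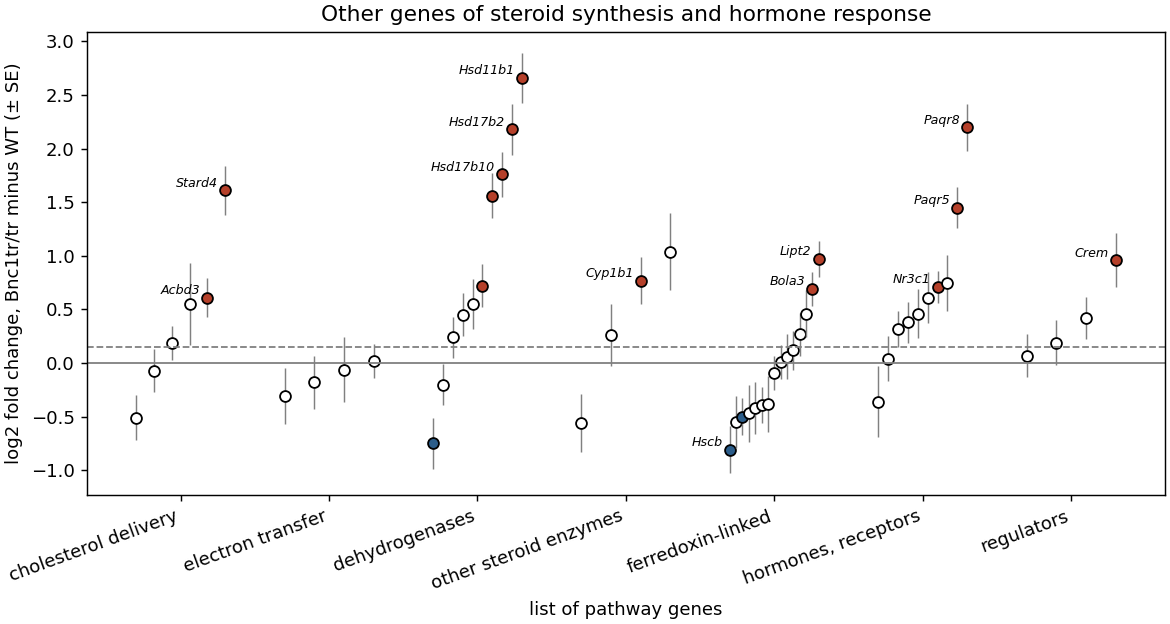
Log2 fold change (Bnc1tr/tr minus WT, with SE) of the 53 tested genes of the 7 pathway lists; red symbols were called higher, blue lower, white neither, and the dashed line marks the median of all genes, 0.15. The largest changes are those of Hsd11b1, Paqr8 and Hsd17b2, while the electron carriers lie around 0.

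Likeness of pattern was measured by Pearson's r of log2(FPKM + 1) over the 6 libraries, among genes averaging 5 FPKM or more, as a description in which all points share the same libraries. Nearest to Fshr were Muc20 (r = 0.9993), Pdlim3 (0.9989) and Wfdc21 (0.9977). Pdlim3, for example, measured 8.67, 11.54 and 11.91 FPKM in Bnc1tr/tr and 0.99, 1.78 and 0.41 FPKM in WT. Nearest to Cyp11a1 were Ccnb3 (0.9986), Nat8f3 (0.9981) and Med18 (0.9976). These patterns were common, since 474 genes had an r over 0.95 with Fshr, 402 with Cyp11a1 and 211 with Fdx1, whose nearest were Cnppd1 (0.9924), Hmgb3 (0.9923) and Borcs5 (0.9921). Cyp19a1 was matched by 7 genes at that level, with Cyp2b23 (0.9893), Cd209f (0.9645) and Gm4027 (0.9531) the nearest. Cyp2b23, a cytochrome of another subfamily, measured 7.87, 11.46 and 8.57 FPKM in Bnc1tr/tr and 6.20, 7.33 and 4.89 FPKM in WT, the same order of libraries as Cyp19a1 within each genotype.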

How the data were processed

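Oocyte libraries (3 Bnc1tr/tr and 3 WT) were prepared by a modified Smart-seq2 procedure without molecular identifiers, so PCR copies are counted. The authors deposited 1 table of FPKM per library, rounded to 2 decimals; the submitters' processing notes name HISAT2 2.0.4, Bowtie2 2.2.5, RSEM 1.2.12 and GRCm38.p6. Differential expression was computed here on log2(FPKM + 1) by limma (version 3.58.1, R 4.3.3) over the 10560 genes averaging 1 FPKM or more, with Benjamini-Hochberg adjustment over all of them, and tested on simulated data first. Genes below that level were compared by exact permutation. Fragments were estimated from the spacing of low FPKM values of 934 genes. Such estimates cover counting error only. Members and lists were chosen with earlier results of these data known. Named were all 10 members, up to 3 called genes per pathway list by size of change, paralogs that share sequence, the highest and the defining absent markers, and the 3 nearest genes by correlation. Symbols that a spreadsheet had turned into dates (25) were matched by gene ID. Promoter windows came from RefSeq.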

Additional observations from a re-analysis of the deposited data

How the results depend on the processing

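Fshr kept its call under all 17 alternatives in which it was tested and Cyp11a1 under 16 of 17, the exception being the fit without Bnc1tr/tr replicates 1 and 2, which left 1 mutant library. Neither could be tested at a minimum mean of 5 FPKM. Fdx1 kept its call under 5 of 18. No sign changed. The count of genes called higher among the 10 was 3, and fell to 1 at the minimum mean of 5 FPKM and to 1 without Bnc1tr/tr replicates 1 and 2; leaving out any single library gave 2 in each case. Adding a replicate block to the fit gave 4, since Cyp19a1 was then called (adjusted p = 0.047, limma). The numbers did not pair the samples (correlations of same-numbered deviations 0.278, -0.034 and 0.124), and the block changed the call of no other of the 10 genes. For the pathway lists, 7 genes were called higher at the 5 FPKM minimum, and the 3 called lower became 1 with a pseudocount of 0.1, 8 with upper-quartile scaling, 6 with median-ratio scaling and 5 with quantile normalization. Leaving out 1 library gave 11 to 17 higher and 0 to 4 lower. The 2 granulosa markers called higher became 0 at the 5 FPKM minimum, 1 with quantile normalization and 1 to 2 without 1 library, where 0 to 1 were lower. The theca marker called (Cyp11a1) was below the 5 FPKM minimum, which left 0. Over all genes the minimum of 5 FPKM left 1413 higher of 6867 tested, and quantile normalization gave 1637 higher. Genes called lower numbered 1794 with upper-quartile scaling, 1534 with median-ratio scaling and 1877 with quantile normalization, against 811 as deposited, and calls that were higher made up 50.8%, 56.0% and 46.6% of all calls in place of 75.8%. Without 1 library the counts ran from 1905 to 2498 higher and from 418 to 1041 lower. The cause of these shifts was not tested. Depth limits Lhcgr, Cyp17a1, Hsd3b1, Hsd17b1 and Fdxr, which rest on few fragments per library. It also limits the WT levels of Fshr and Cyp11a1.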
